A study of Homo sapiens with 8 samples.

Results

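The 10 keratin genes KRT5, KRT14, KRT6A, KRT6B, KRT16, KRT17, KRT13, KRT4, KRT1 and KRT10 were followed through RNA-seq of Kyse510 cells, an established human line of esophageal squamous cell carcinoma (ESCC). They were chosen by gene name as the keratins that mark the layers of a stratified epithelium, and each was found once in both deposited tables, among 31582 genes in the inhibitor table and 28942 genes in the knockdown table. Each of 8 conditions was sequenced as 1 library. Inhibitor-treated cells received vehicle (DMSO), SP2509 (an inhibitor of the histone demethylase LSD1) at 7 µM, UNC0642 (an inhibitor of the histone methyltransferase G9a) at 7 µM, or both inhibitors, for 2 days. The doses within the combination are not stated separately. In the genetic arm, Kyse510 cells carried a doxycycline-inducible shRNA against LSD1 (shLSD1) or G9a (shG9a), had been selected with puromycin for 14 days, and were sequenced without doxycycline (-Dox) or after 2 days with it (+Dox). None of the libraries analysed here is a line with a non-targeting hairpin, so effects of doxycycline and of the hairpin cannot be told apart. Each shRNA line carries 1 hairpin and was kept as stable clones.

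Keratins are the intermediate filament proteins of epithelial cells. A filament is built from heterodimers of a type I (acidic) and a type II (basic) keratin, so the genes are usually expressed in pairs. In stratified squamous epithelium, basal cells make KRT5 (type II) and KRT14 (type I). Cells that leave the basal layer switch to KRT4 and KRT13 in the esophagus, or to KRT1 and KRT10 in the epidermis. KRT6A, KRT6B (type II), KRT16 and KRT17 (type I) are induced by injury, inflammation and rapid growth, and are common in squamous carcinoma. The type II genes lie on chromosome 12 and the type I genes on chromosome 17 (GRCh38), all on the minus strand.

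RefSeq promoter entries (GRCh38.p14) were matched for 3 of the 10 members, KRT5, KRT4 and KRT10. The last 30 bases before each start site are shown 5′ to 3′ because the 3 genes stand for the basal, mucosal and epidermal programs and share a core element there, with the letters ATAA of the TATA core in capitals. They lie at chr12:52520395-52520424, chr12:52814117-52814146 and chr17:40822615-40822644, all on the minus strand.
KRT5: gATAAaaagggggcatcaccgttcctgggt
KRT4: atATAAgagacgaaggctgagggctccagc
KRT10: atATAAaggcttgtcactgtccttggtagc
The core began 29 bases before the KRT5 start and 28 bases before the KRT4 and KRT10 starts. Searched on the gene's strand between 35 and 21 bases before the start, ATAA was found in 7.08% of the 35116 promoters in the RefSeq table. Over the 250 bases before the start and on both strands, the AP-2 letters GCCNNNGGC were found in KRT4, 105 to 97 bases before its start, and in 19.8% of all promoters. The AP-1 letters TGANTCA (6.57% of all promoters) and the GC box letters GGGCGG (42.6%) were found in none of the 3 windows. These motifs were picked after the sequences and values had been seen, and a match is only a match of letters. The printed KRT5 stretch is also part of a first exon of another KRT5 transcript. The printed KRT4 stretch lies within the span listed for the KRT4 gene (chr12:52806549-52814551).

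Levels are given as FPKM, fragments per kilobase of gene scaled to library depth. The gene length behind the FPKM, as estimated here, was 4292 bases for KRT5, 2281 for KRT14 and 2144 for KRT10. Their GENCODE canonical transcripts have 2238, 1636 and 2143 bases. Levels and ratios between genes therefore depend on the length used, while changes of a gene within an arm do not. The change of a gene was log2 of the ratio of (FPKM + 1) in the treated library to (FPKM + 1) in its own control, and a gene was called when this ratio was at least 1.3-fold in either direction and the gene had at least 1 FPKM in at least 1 of the 2 libraries. "Rose" and "fell" are used for called genes. With 1 library per condition there is no replicate spread and no p-value. Intervals given after a fold are exact 95% intervals of the FPKM ratio from the estimated reads, and cover counting error only. The totals of the 8 libraries, estimated from the steps of the FPKM values, were 15662035 to 17889466 reads. Whether the counted unit was a read or a read pair is not given in the sources used here; if single reads of a pair were counted, the intervals would be too narrow.

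The hairpins and the cell type were checked first. KDM1A, the gene of LSD1, was at 26.0 FPKM in shLSD1 -Dox and 6.29 FPKM in shLSD1 +Dox. EHMT2, the gene of G9a, was at 7.85 FPKM in shG9a -Dox and 4.76 FPKM in shG9a +Dox. It was at 7.97 FPKM in shLSD1 +Dox. In the inhibitor arm, EHMT2 was at 11.1 FPKM in vehicle and 5.38 FPKM with the combination. With SP2509 alone it was at 10.2 FPKM, and with UNC0642 alone at 10.3 FPKM. KDM1A was at 26.4 FPKM in shG9a -Dox and 35.8 FPKM in shG9a +Dox. EHMT2 was thus lower with doxycycline in shG9a but not in shLSD1, and was also lower with the inhibitor combination. The paper reports less G9a mRNA and protein in its induced shG9a Kyse510 cells, after a longer doxycycline treatment. How far the shG9a values here reflect loss of G9a was not tested. The squamous markers were TP63, SOX2, CDH1, EPCAM, DSG3, KRT5 and KRT14, so KRT5 and KRT14 are also members of the keratin group itself. Of these 7 squamous markers, 6 or 7 reached 1 FPKM in every library. SOX2 was the one below 1 FPKM, at 0.31 FPKM with SP2509 and 0.64 FPKM with the combination. No glandular or leukocyte marker reached 1 FPKM in any library, and MUC5AC and CD68 were listed at 0 in several. Of 4 mesenchymal and 2 endothelial markers, 1 of each list did, with summed levels of 2.98 to 5.63 FPKM and 3.28 to 14.0 FPKM. The endothelial marker was CDH5, highest in shLSD1 +Dox and the combination; its part in the keratin values was not tested.

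KRT17 and KRT5 dominated the group. KRT17 was the highest of the 10 in 6 libraries and KRT5 in the vehicle and shG9a +Dox libraries. Together, the other 8 genes held between 1.99% (SP2509) and 10.2% (combination) of the FPKM of the 10. KRT13 lay between 1.82 and 49.2 FPKM, and KRT1 was close to 0 everywhere. The starting points of the arms also differed. KRT17 was at 324 FPKM in vehicle against 1738 and 1596 FPKM in the uninduced shLSD1 and shG9a lines, whereas KRT5 was at 427 FPKM in vehicle against 188 and 177 FPKM. The arms are separate tables whose gene models differ for KRT17 (2537 against 3130 bases), so levels across them are set side by side only.

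**Figure D1:**
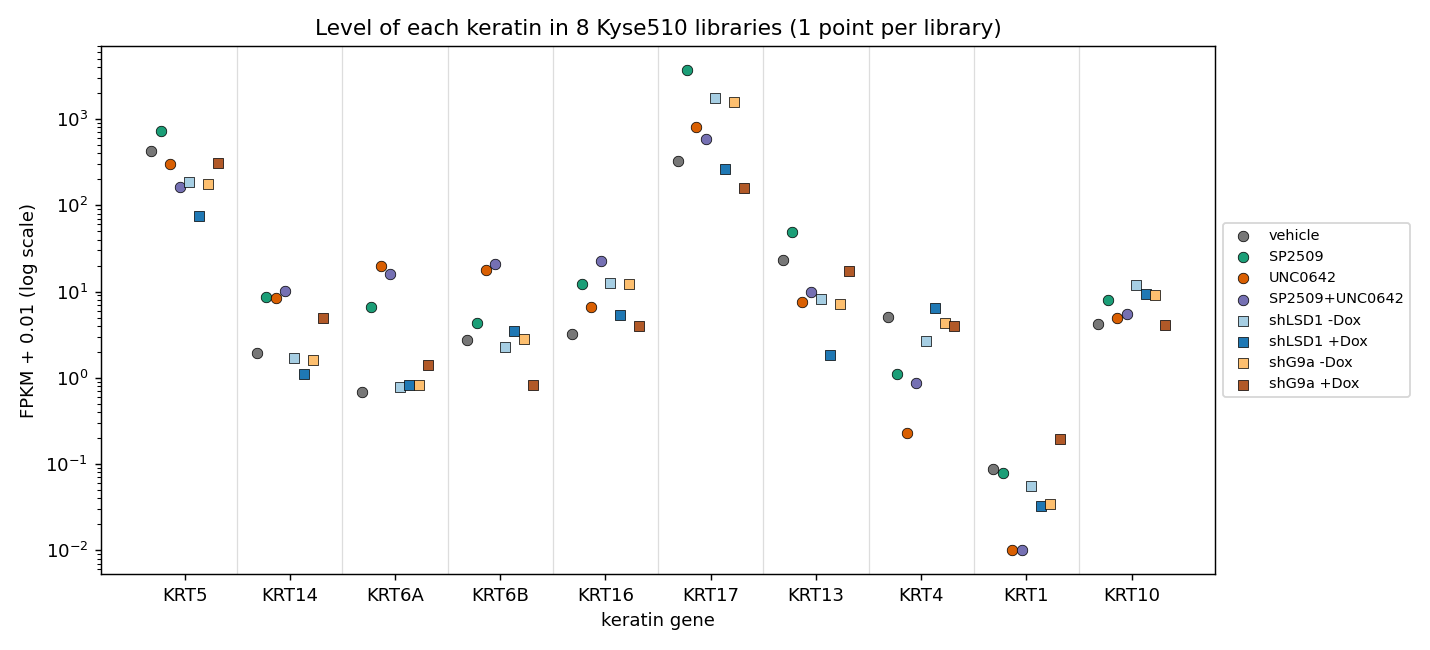
FPKM of the 10 keratins on a log axis, with 0.01 added so that values of 0 can be drawn. Each point is 1 library, circles are the inhibitor libraries and squares the shRNA libraries; KRT17 with SP2509 is the highest point at 3716 FPKM, and KRT1 stays below 0.19 FPKM in all 8 libraries.

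As a share of all FPKM in a library, the 10 keratins held 0.276% in the vehicle library and 1.64% in the SP2509 library. Their share was 0.421% after UNC0642 and 0.291% after the combination. In the shRNA lines their share was 0.638% in shLSD1 -Dox and 0.113% in shLSD1 +Dox, and 0.589% in shG9a -Dox and 0.151% in shG9a +Dox. The share was thus highest with SP2509 and lowest in the 2 libraries with doxycycline. All keratin genes together, including those outside the group, held 0.434% to 2.03% of the FPKM of a library. Among the 10 members alone, the summed type I level was 0.82 times the type II level in vehicle. After treatment it was 5.08 times (SP2509), 2.44 times (UNC0642) and 3.19 times (combination) the type II level. It was 9.15 times the type II level in shLSD1 -Dox and 3.31 times in shLSD1 +Dox. In shG9a it went from 8.77 times without to 0.592 times with doxycycline. By FPKM, only vehicle and shG9a +Dox thus held more type II than type I among the 10 members. Keratins outside the group are not in these sums. In vehicle these included KRT8 at 239 FPKM, KRT7 at 183 FPKM, KRT18 at 164 FPKM and KRT15 at 151 FPKM. The balance over all keratins was not tested.

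**Figure D2:**
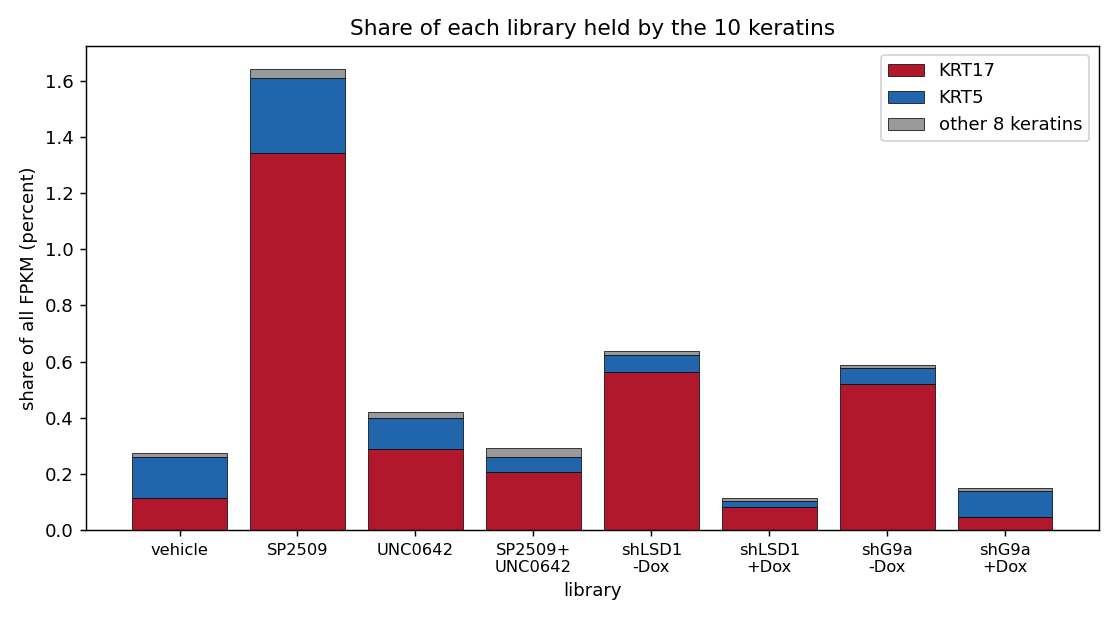
Share of all FPKM held by the 10 keratins in each library (percent, bars from 0), split into KRT17, KRT5 and the other 8 genes. The SP2509 bar reaches 1.64%, of which KRT17 makes up 81.8%, and the 2 doxycycline bars are at 0.113% and 0.151%.

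The first comparison set the SP2509 library against the vehicle library. With SP2509, 8 of the 10 genes rose and KRT4 alone fell, while KRT1 stayed under 1 FPKM. Over all 13342 genes tested, 21.0% rose and 39.9% fell by the same rule. The median log2 change was 1.05 over the 9 keratins that passed the filter and -0.21 over all genes tested. UNC0642, the G9a inhibitor, gave 5 keratins that rose (KRT14, KRT6A, KRT6B, KRT16 and KRT17) and 3 that fell (KRT5, KRT13 and KRT4), against 18.2% up and 16.9% down of all 13244 genes. Their median was 0.84 against -0.01 over all genes tested. With the combination, 5 rose and 3 fell again, against 31.4% up and 31.7% down of all 13907 genes, and the medians were 0.87 and -0.02. These 3 comparisons share the vehicle library, so a deviation of that library moves all of them.

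The knockdowns gave a different set of values. In shLSD1, 2 keratins rose (KRT6B and KRT4) and 4 fell (KRT5, KRT16, KRT17 and KRT13), against 24.8% up and 12.3% down of 12970 genes. In shG9a, 4 rose (KRT5, KRT14, KRT6A and KRT13) and 4 fell (KRT6B, KRT16, KRT17 and KRT10), against 32.9% up and 17.6% down of 13080 genes. The median log2 change was -0.72 over 8 keratins in shLSD1 and -0.10 over 9 in shG9a, and 0.13 and 0.18 over all genes tested. Between the 2 uninduced lines, which received neither inhibitor nor doxycycline, 1 keratin (KRT4) passed the fold threshold, against 3.04% up and 4.51% down of 12449 genes. Among well-expressed genes (5 FPKM or more in treated and control library alike), the median log2 change was -0.09 (SP2509), -0.0036 (UNC0642), 0.04 (combination), 0.11 (shLSD1) and 0.14 (shG9a). No called keratin changed direction when its log2 change was taken relative to these medians, but the calls in the knockdowns moved. In shLSD1, KRT6B then missed the threshold (log2 change 0.34), and KRT14 (-0.47) and KRT10 (-0.42) passed it, which made 1 up and 6 down. In shG9a, KRT6A missed it (0.26), which made 3 up and 4 down.

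**Figure D3:**
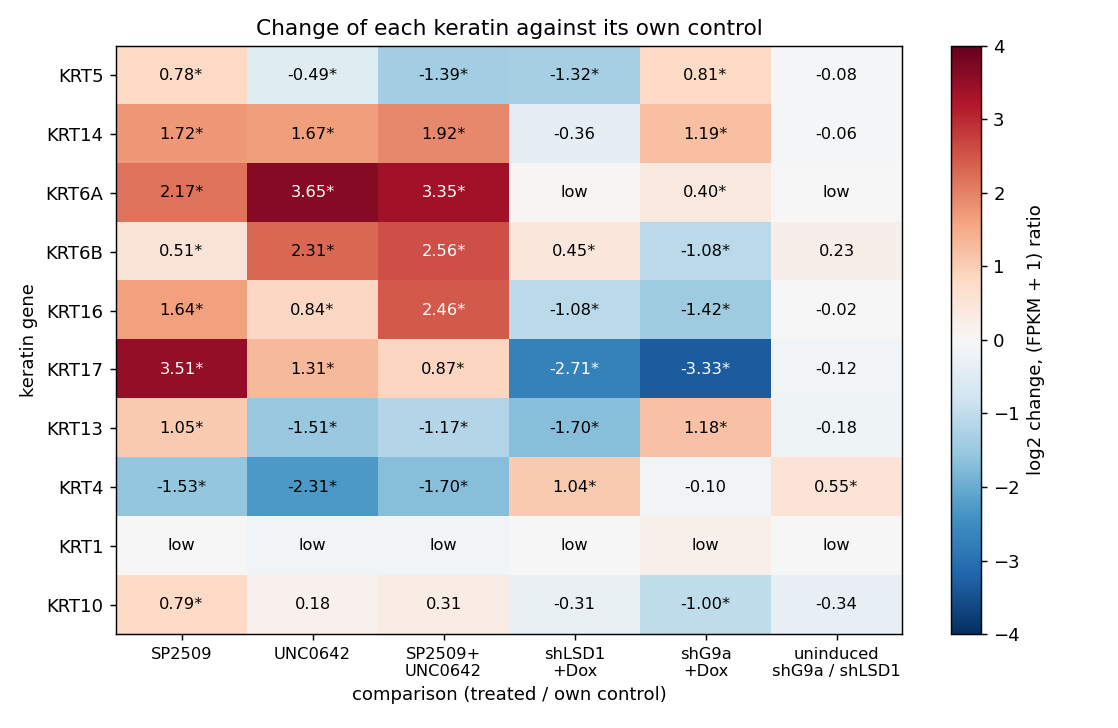
Log2 change of each keratin (rows) in the 5 comparisons and between the 2 uninduced lines (columns), on the (FPKM + 1) scale, red for higher and blue for lower in the treated library. An asterisk marks a change of at least 1.3-fold and "low" a gene under 1 FPKM in both libraries; KRT17 runs from 3.51 with SP2509 to -3.33 in shG9a.

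KRT5, the type II keratin of basal cells (chr12:52514575-52520687), was at 427 FPKM in vehicle, 734 FPKM with SP2509, 303 FPKM with UNC0642 and 163 FPKM with the combination. It rose 1.72-fold (1.70 to 1.75) with SP2509 and fell 1.41-fold (1.38 to 1.43) with UNC0642 and 2.62-fold (2.57 to 2.68) with the combination. The combination was therefore below both single treatments and vehicle. In shLSD1 it fell 2.52-fold (2.44 to 2.60), from 188 to 74.6 FPKM. In shG9a it rose 1.76-fold (1.72 to 1.80), from 177 to 312 FPKM. Each enzyme's inhibitor and knockdown thus had KRT5 values on opposite sides of their controls, and the 2 uninduced lines differed 1.06-fold (1.03 to 1.08).

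KRT14, the usual type I partner of KRT5 in basal cells (chr17:41582279-41586921), was far below it, at 1.93 FPKM in vehicle. It was at 8.67 FPKM with SP2509, 8.31 FPKM with UNC0642 and 10.1 FPKM with the combination, all above vehicle, and rose 4.49-fold (3.46 to 5.90), 4.30-fold (3.31 to 5.66) and 5.22-fold (4.03 to 6.84). In shLSD1 it was at 1.70 FPKM without and 1.10 FPKM with doxycycline, a 1.55-fold lower level (1.04 to 2.31) that missed the threshold on the (FPKM + 1) scale. It was called as a fall with a pseudocount of 0.1 FPKM (log2 change -0.59) and with either centring (-0.47). In shG9a it rose 3.09-fold (2.30 to 4.20), from 1.59 to 4.91 FPKM. The ratio of KRT5 to KRT14 was 221 in vehicle, and was lower after SP2509 (84.7), UNC0642 (36.5) and the combination (16.2). It was 110 and 67.7 in shLSD1 and 112 and 63.5 in shG9a, without and with doxycycline, so KRT5 exceeded KRT14 in every library.

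KRT17, a type I keratin of stressed and proliferating epithelium (chr17:41619437-41624842 in the inhibitor table), had the widest range in FPKM. It was at 324 FPKM in vehicle, 3716 FPKM with SP2509, 806 FPKM with UNC0642 and 594 FPKM with the combination. The SP2509 library held 167857 KRT17 reads, and KRT17 ranked 5 among all genes there and 73 in vehicle. It rose 11.5-fold (11.3 to 11.7) with SP2509, 2.49-fold (2.44 to 2.54) with UNC0642 and 1.83-fold (1.79 to 1.87) with the combination, which held less KRT17 than either inhibitor alone. In the genetic arm KRT17 fell 6.55-fold (6.44 to 6.67) in shLSD1, from 1738 to 265 FPKM, and 10.1-fold (9.87 to 10.3) in shG9a, from 1596 to 158 FPKM. The uninduced lines lay within 1.09-fold (1.08 to 1.10) of each other. KRT17 rose with either inhibitor and fell with doxycycline in both shRNA lines, from controls that themselves differed. Effects of doxycycline and of the hairpins cannot be told apart in this fall.

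KRT16, another stress keratin of type I (chr17:41609778-41615899), was at 3.25 FPKM in vehicle, 12.3 FPKM with SP2509, 6.62 FPKM with UNC0642 and 22.4 FPKM with the combination. The rises were 3.78-fold (3.11 to 4.62), 2.04-fold (1.65 to 2.53) and 6.88-fold (5.70 to 8.35), the combination being the highest. In shLSD1 it fell 2.32-fold (1.99 to 2.72), from 12.5 to 5.40 FPKM. In shG9a it fell 3.09-fold (2.59 to 3.69), from 12.3 to 3.99 FPKM. KRT16 and KRT17 had the same direction in all 5 comparisons, but not the same order, since KRT17 was lowest and KRT16 highest among the treated libraries of the inhibitor arm in the combination.

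KRT6A (chr12:52487174-52493257), a type II keratin induced in wounded epithelium, was at 0.676 FPKM in vehicle, with 31 reads. It was at 6.56 FPKM with SP2509, 20.03 FPKM with UNC0642 and 16.1 FPKM with the combination, and rose 9.70-fold (6.71 to 14.5), 29.6-fold (20.7 to 43.8) and 23.8-fold (16.6 to 35.2). The 2 libraries with UNC0642 were the highest. In the genetic arm KRT6A stayed low, at 0.769 and 0.819 FPKM in shLSD1 and 0.805 and 1.38 FPKM in shG9a without and with doxycycline. The shG9a change, 1.71-fold (1.14 to 2.61), passed the threshold with an interval that reaches below 1.3-fold, and missed it with centring.

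KRT6B (chr12:52446651-52452126), its close paralog, was at 2.74 FPKM in vehicle, 4.33 FPKM with SP2509, 17.5 FPKM with UNC0642 and 21.1 FPKM with the combination. It rose 1.58-fold (1.23 to 2.04), 6.396-fold (5.17 to 7.98) and 7.71-fold (6.24 to 9.60), so again the libraries with UNC0642 stood above the one with SP2509 alone. In shLSD1 it rose 1.52-fold (1.16 to 2.00), from 2.27 to 3.45 FPKM. The intervals of the SP2509 and shLSD1 changes reach below 1.3-fold. In shG9a it fell 3.501-fold (2.34 to 5.37), from 2.83 to 0.81 FPKM. Counting could have split reads between the KRT6 genes. Of the 150-base windows of the GENCODE canonical transcripts, 9.26% of KRT6A and 12.7% of KRT6B also occur in another keratin transcript, chiefly KRT6C, which itself stayed at or below 0.0772 FPKM. The share was 0.729% for KRT16, 0.605% for KRT14 and 0 for the other 6 genes.

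The ratio of KRT6A to its usual partner KRT16 was 0.208 in vehicle, and 0.534 after SP2509, 3.03 after UNC0642 and 0.719 after the combination. UNC0642 was the only library in which KRT6A exceeded KRT16. In the genetic arm this ratio ran from 0.0614 in shLSD1 -Dox to 0.346 in shG9a +Dox. KRT17 exceeded KRT6B in every library, by 28.1 times with the combination and by 858 times with SP2509; this pair was added after its values had been seen.

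KRT13, the type I keratin of suprabasal esophageal cells (chr17:41500981-41505705), was at 23.3 FPKM in vehicle, 49.2 FPKM with SP2509, 7.52 FPKM with UNC0642 and 9.84 FPKM with the combination. It rose 2.11-fold (1.964 to 2.27) with SP2509 and fell 3.10-fold (2.76 to 3.49) with UNC0642 and 2.37-fold (2.13 to 2.64) with the combination. In shLSD1 it fell 4.47-fold (3.57 to 5.66), from 8.16 to 1.82 FPKM. In shG9a it rose 2.44-fold (2.15 to 2.77), from 7.08 to 17.3 FPKM. KRT13 and KRT5, a differentiation and a basal keratin, were called in the same direction in each of the 5 comparisons.

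KRT4, the type II partner of KRT13 in the esophagus (chr12:52806549-52814551), was at 5.03 FPKM in vehicle, 1.09 FPKM with SP2509, 0.219 FPKM with UNC0642 and 0.859 FPKM with the combination. All 3 treated libraries were lower, by 4.64-fold (3.51 to 6.19), 22.9-fold (13.2 to 43.6) and 5.86-fold (4.29 to 8.15). It had 261 reads in vehicle and 13 with UNC0642. In shLSD1 it rose 2.46-fold (2.03 to 2.98), from 2.65 to 6.52 FPKM. In shG9a it was at 4.34 FPKM without and 3.98 FPKM with doxycycline. KRT4 also differed 1.64-fold (1.33 to 2.02) between the uninduced lines, the only keratin that did so past the threshold, and against the mean of both uninduced libraries its log2 change in shLSD1 was 0.74 instead of 1.04. The KRT13 level was 4.64 times that of KRT4 in vehicle, 45.4 times with SP2509, 34.3 times with UNC0642 and 11.5 times with the combination. In shLSD1 +Dox, unlike the 7 other libraries, KRT4 exceeded KRT13, by 3.57 times.

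KRT10, the type I keratin of suprabasal epidermal cells (chr17:40818117-40822595), varied least among the 9 genes that reached 1 FPKM, with 2.91-fold between its lowest and highest level. It was at 4.20 FPKM in vehicle, 8.02 FPKM with SP2509, 4.90 FPKM with UNC0642 and 5.44 FPKM with the combination, and rose only with SP2509, 1.91-fold (1.56 to 2.35). The UNC0642 ratio of 1.17 had an interval of 0.933 to 1.46. In shLSD1 it was at 11.9 and 9.46 FPKM without and with doxycycline, under the threshold unless centred, and in shG9a it fell 2.25-fold (1.85 to 2.75), from 9.22 to 4.09 FPKM. KRT10 overlaps TMEM99, listed on the opposite strand, and reads of the 2 genes cannot be told apart without strand. KRT1 (chr12:52674736-52680407), the type II partner of KRT10, had 0 to 8 reads in a library and at most 0.186 FPKM. It had 0 reads with UNC0642 and with the combination, which allows a level of up to 0.0674 and 0.0714 FPKM (3 reads). In the 6 libraries with KRT1 reads, KRT10 exceeded KRT1 by 22.0 to 412 times.

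The combination was set against the sum of the single log2 changes, to describe its value on each keratin beside the 2 single values. The doses within the combination are not stated separately, so a departure from the sum cannot be told apart from a difference in dose. KRT17 fell short of the sum by the most, with a combination change of 0.87 against a sum of 4.83. The combination lay below the sum by 2.47 for KRT6A, 1.68 for KRT5, 1.47 for KRT14, 0.70 for KRT13, 0.67 for KRT10 and 0.26 for KRT6B. KRT16 was at the sum, 2.46 against 2.48, with a difference of -0.16 (-0.50 to 0.18) when no pseudocount was added. KRT4 lay 2.14 above it, with each of the 3 treated libraries near or below 1 FPKM. For KRT5 the singles added to 0.29 and the combination was at -1.39, on the other side of 0. All of these values rest on the same 4 libraries.

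**Figure D4:**
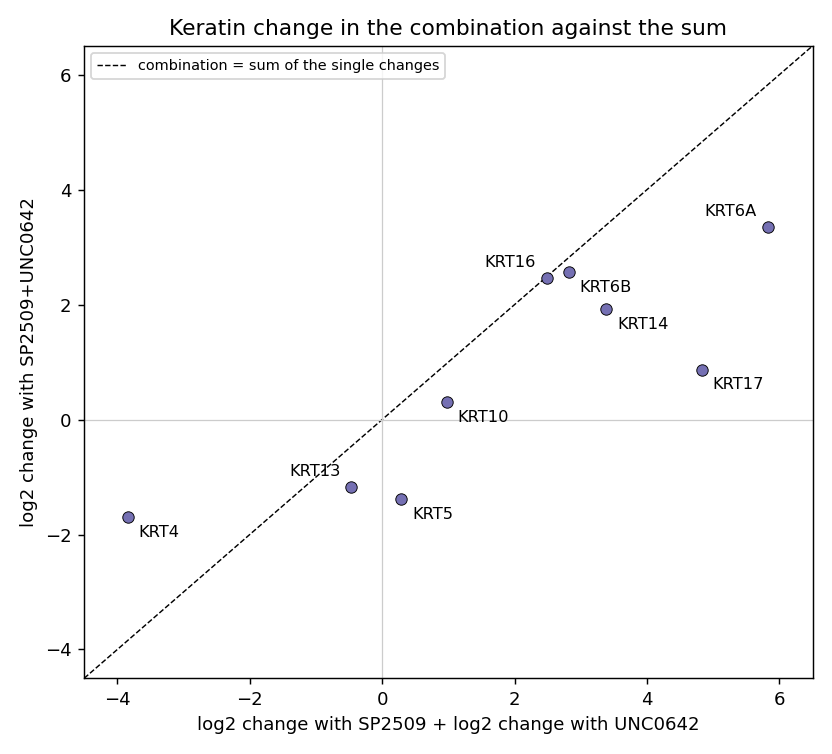
Log2 change in the combination (y axis) against the sum of the log2 changes with SP2509 and with UNC0642 (x axis), 1 point per keratin without KRT1; the dashed line is equality. KRT16 lies on the line (2.48, 2.46), KRT4 above it, and KRT17 (4.83, 0.87) farthest below.

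Keratins outside the group were read in the same way. In this list and those that follow, genes are named mainly in the comparisons where their change was among the 2 largest. A gene not named in a comparison can still have been called there. Counts of a list are to be read beside the shares of all genes given above for each comparison. Of 14 other keratins of stratified epithelia, 4 or 5 reached 1 FPKM in a comparison. After either single inhibitor 3 of them rose and 1 fell, and after the combination 4 rose and 1 fell. In shLSD1, 1 rose and 2 fell, and in shG9a 3 fell and 0 rose. KRT75, a type II keratin of the hair follicle companion layer, was at 4.73 FPKM in vehicle, 67.1 FPKM with SP2509, 64.1 FPKM with UNC0642 and 92.9 FPKM with the combination, and went from 8.14 to 0.541 FPKM in shLSD1 and from 6.32 to 0.795 FPKM in shG9a. KRT75 had the largest change of this list in all 5 comparisons, on the same sides of the controls as KRT17. KRT15, a type I keratin of basal cells, was at 150.8 FPKM in vehicle and 17.3 FPKM with the combination (log2 change -3.05), and at 439 and 191 FPKM in shLSD1 without and with doxycycline (-1.20). It also fell with SP2509 (-0.41) and UNC0642 (-1.45), and was not called in shG9a (-0.07). KRT80 rose with SP2509, from 12.5 to 68.9 FPKM. It also rose with UNC0642 (0.64), the combination (2.07) and in shLSD1 (0.62), and fell in shG9a (-1.03). KRT23 was at 1.298 FPKM in vehicle and 6.32 FPKM with UNC0642, and at 3.29 and 0.119 FPKM in shG9a. It also rose with SP2509 (0.84) and the combination (1.37), and was not called in shLSD1 (-0.16).

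Of 5 keratins of simple epithelia, 4 or 5 reached 1 FPKM in a comparison. With SP2509, 1 rose (KRT7, log2 change 0.80) and none fell. With UNC0642, 0 of 4 were called, KRT8 at -0.31 and KRT19 at -0.22 having the largest changes. With the combination, 1 rose (KRT20, from 0.0692 to 1.28 FPKM) and 1 fell (KRT7, -0.78). KRT19 fell in both knockdowns, by 0.57 on the log2 scale in each, and in shG9a KRT7 (-0.57) and KRT18 fell too, while KRT8 in shLSD1 was at 0.26. KRT16P1, a pseudogene copy of KRT16, was at 0.484 FPKM in vehicle, 7.12 FPKM with SP2509, 11.8 FPKM with UNC0642 and 0.699 FPKM with the combination, and went from 17.1 to 1.28 FPKM in shLSD1 and from 17.8 to 0.195 FPKM in shG9a. Its share in the KRT16 and KRT17 values was not tested; with the combination, KRT16 was at its highest and KRT16P1 near its vehicle level.

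Genes that anchor keratin filaments were mixed. Of 10 linkers, 8 or 9 passed the filter in a comparison. Among them, 4 rose and 3 fell with SP2509, 3 and 0 with UNC0642, 3 and 4 with the combination, 1 and 3 in shLSD1, and 3 and 2 in shG9a. DST, the dystonin of the hemidesmosome, was at 16.6 FPKM in vehicle, 59.2 FPKM with SP2509 (log2 change 1.77) and 4.72 FPKM with the combination (-1.62), and fell in shLSD1 (-1.65) and shG9a (-1.52). PLEC, plectin, rose with SP2509 (1.37), UNC0642 (0.82) and the combination (1.56), as did EPPK1, epiplakin (1.25, 1.09 and 1.73). Of the cornified envelope plakins, EVPL fell with SP2509 (-0.76) and the combination (-0.67) and rose in shLSD1 (0.55) and shG9a (0.64). PPL fell in shLSD1 (-0.50) and shG9a (-0.95).

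Squamous differentiation genes that are not keratins, 14 in the list of which 5 to 9 passed the filter in a comparison, gave 5 up and 0 down with SP2509, 4 and 1 with UNC0642, 6 and 1 with the combination, 0 and 3 in shLSD1, and 1 and 5 in shG9a. SPRR1A, a cornified envelope protein, was at 0.24 FPKM in vehicle, 8.94 FPKM with SP2509, 8.90 FPKM with UNC0642 and 50.7 FPKM with the combination. IVL, involucrin, was at 0.30 FPKM in vehicle, 8.45 FPKM with SP2509 and 10.4 FPKM with UNC0642, and fell in shLSD1 (-1.76) and shG9a (-1.81). SBSN, suprabasin, went from 0.35 to 53.6 FPKM with the combination. TGM1, which cross-links the envelope, fell in shG9a (-2.18), and EMP1 fell in shLSD1 (-0.71). KRT4 and KRT13 are the mucosal keratins of the same cells, and with the combination both fell while SPRR1A and SBSN rose.

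Of 9 basal layer genes, 8 rose and 1 fell with SP2509, 5 and 1 with UNC0642, 5 and 4 with the combination, 0 and 3 in shLSD1, and 0 and 6 in shG9a. COL17A1, the collagen of the hemidesmosome, rose from 12.9 to 92.3 FPKM with SP2509 and fell in shLSD1 (-0.92). LAMA3, a laminin gene of the basement membrane, rose with UNC0642 (0.80), and LAMB3, another, fell in shG9a (-1.16). TP63, the basal transcription factor, fell with the combination from 79.1 to 18.3 FPKM, as did PDPN (-1.73), and CAV1 fell in shLSD1 (-1.15). The basal keratins KRT5 and KRT14 rose in shG9a, where none of these 9 basal genes did. KRT15, also a keratin of basal cells, was not called there (-0.07).

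Of 14 regulators of squamous cells, 13 or 14 passed the filter in a comparison. With SP2509, 2 rose and 5 fell, beside 21.0% up and 39.9% down of all genes tested. The counts up and down were 2 and 4 with UNC0642, 6 and 5 with the combination, 4 and 4 in shLSD1, and 2 and 5 in shG9a. SOX2, a transcription factor of the foregut epithelium, was at 18.3 FPKM in vehicle, 0.31 FPKM with SP2509, 4.94 FPKM with UNC0642 and 0.64 FPKM with the combination, and rose in shLSD1 (1.76) and shG9a (2.51). Across the 5 comparisons SOX2 thus lay on the opposite side of its controls from KRT17. KLF4, a factor of differentiating squamous cells, rose with SP2509 (1.03) and the combination (2.37) and fell in shG9a (-1.69). MAF, a transcription factor, fell in shLSD1 (-0.89).

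Nearest genes were searched among 8228 protein-coding genes, from which the keratins were then left out. Those with the most similar changes to a keratin were found by the root mean square difference of the 5 log2 changes. For KRT5 they were SESN3 (0.44), FNBP1L (0.48) and FAM83B (0.54). For KRT6A they were the cytokine gene IL24 (0.50), the receptor gene IL7R (0.71) and SIRPB1 (0.84). For KRT13 they were NPNT (0.74), SESN3 (0.81) and IGFBP5 (0.81). KRT17 was added after its values had been seen. Its nearest genes were IFFO2 (0.26), an intermediate filament family member, TNFAIP3 (0.35), a brake on NF-κB signalling, and PTGS2 (0.50), cyclooxygenase-2. TNFAIP3 changed by 3.66 with SP2509, 1.82 with UNC0642, 1.27 with the combination, -2.64 in shLSD1 and -3.72 in shG9a on the log2 scale, beside 3.51, 1.31, 0.87, -2.71 and -3.33 for KRT17. These are descriptions over 5 differences, 3 of which share the vehicle library.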

How the data were processed

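RNA of 8 Kyse510 libraries (1 per condition) was sequenced as paired 150-base reads. The authors mapped them to GRCh38 and deposited FPKM values per gene in 2 tables; the aligner, the counting tool and the use of strand are not given in the sources used here. Members, lists and motifs were chosen with earlier results of these data known. Reads were estimated from the FPKM: genes with 1 exon gave each library's total, and each gene took the length at which all 4 libraries have whole reads, raised to the reference length where that was a multiple of up to 4. The tolerances of this step were set after seeing the data. The reads add up to 99.6% to 99.8% of the totals; 5 and 3 genes gave no whole reads. On simulated data, 4 of 4 totals and 97.8% of 2785 genes of at least 1 FPKM were recovered.

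Changes used a pseudocount of 1 FPKM, a minimum of 1 FPKM in at least 1 library and a 1.3-fold threshold, after the study's fold threshold. Intervals are exact (Clopper-Pearson) 95% intervals, which cover counting error only. Each treated library was compared with its own control. Beside the 10 members, 6 lists were read, naming in each comparison the 2 genes that changed most (KRT18 in shG9a, KRT16P1 and SOX2 as a marker were named after seeing their values; some genes are not reported here), and for KRT5, KRT6A and KRT13 the 3 nearest genes. Promoters came from the RefSeq table (GRCh38.p14) and transcripts from GENCODE release 44; Python 3.11.15, pandas 2.3.3 and scipy 1.17.1 were used.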

Additional observations from a re-analysis of the deposited data

Results flagged for a closer look

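For 3 keratins, the change with doxycycline passed the threshold in opposite directions in the shLSD1 and shG9a lines. KRT13 fell in shLSD1 and rose in shG9a, with a difference of 2.87 on the log2 scale (shG9a minus shLSD1). KRT5 did the same, with a difference of 2.13. KRT6B rose in shLSD1 and fell in shG9a, with a difference of -1.53. The differences were not tested, since each line has 1 library with and 1 without doxycycline. The rise of KRT6B in shLSD1 missed the threshold under 5 of the alternative settings below.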

How the results depend on the processing

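The alternatives were a pseudocount of 0.1 FPKM, no filter, a minimum of 5 FPKM, a threshold of 2-fold, centring on the median or on a trimmed mean, a counting interval that excludes 1, and both uninduced libraries averaged as control. No called keratin changed direction in any of them. With a threshold of 2-fold, 5 keratins rose with SP2509 instead of 8, 1 in shLSD1 instead of 2, and 2 in shG9a instead of 4. With a minimum of 5 FPKM the count raised was 1 in shLSD1 and 2 in shG9a. The count raised in shLSD1 was also 1 with either centring and with the averaged control, KRT4 being the gene that remained each time. The other counts stayed within 1.5 times, among them the count lowered in shLSD1, which was 6 instead of 4 with either centring and 5 with a pseudocount of 0.1 FPKM, and the count raised in shG9a, which was 3 instead of 4 with either centring. With a pseudocount of 0.1 FPKM the departure from the sum of the single changes was -3.42 for KRT6A and 3.70 for KRT4. Over protein-coding genes alone the keratin share was 0.304% in vehicle, 1.91% with SP2509, 0.458% with UNC0642, 0.331% with the combination, 0.723% and 0.126% in shLSD1 and 0.664% and 0.167% in shG9a, without and with doxycycline. No paired analysis was possible because the labels give 1 library per condition and no replicate numbers. Without replicates, no value here carries an error beyond counting, and depth limits KRT1 and the low levels of KRT6A and KRT4.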
